A study of Homo sapiens with 10 samples.

Results

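The 10 genes described here are AP-1 and immediate early genes: JUN, JUNB and JUND of the Jun family, FOS, FOSB and FOSL1 of the Fos family, and EGR1, IER2, IER3 and MYC. They were chosen by name, each through its probe with a single gene symbol and, where a gene has several, the one with the highest mean. All 10 have such a probe, among 14232 genes in all, and all 10 passed the filter on low values. Exon arrays read the RNA of DLD-1 cells, a line from a human colorectal carcinoma, as 1 log2 signal per gene and array. In the knockdown cells a short hairpin RNA (shRNA) from 1 of 2 constructs targeted LMNB1, the gene of the nuclear lamina protein lamin B1. For V2LHS_62673 there were clones 8, 9 and 12, each grown from a single cell and read on 1 array. For V2LHS_62675 there was a single clone, read on 3 arrays. The sample titles number that clone 12, while the descriptions and the design text make it clone 2, the name used here. As negative controls the study used 3 empty vector clones (an array for each) and untransfected wild type cells on 1 array. All cells grew in RPMI medium with fetal bovine serum, and all except the wild type cells were kept in puromycin, so the empty vector clones share selection and cloning with the knockdown clones and the wild type cells do not. A single clone can differ from another for reasons of its own, and V2LHS_62675 rests on 1 clone and wild type on 1 array.

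Immediate early genes are transcribed within minutes of a stimulus such as serum, growth factors or stress, without new protein synthesis. Jun and Fos proteins pair through leucine zippers to form the transcription factor AP-1. Induction of many immediate early genes runs through the MAP kinase cascade and serum response factor. Handling of a culture, such as a medium change or harvest, can move these genes as well. In colorectal cancer, Wnt signalling is a known activator of MYC.

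The promoters of EGR1, JUN and JUNB, which were among the members that varied most between arrays, and of FOS are shown because they hold letters that are known response elements of this gene class. RefSeq promoter windows (GRCh38.p14, 250 bases before to 50 after the annotated start) were matched by symbol for 7 of the 10 members, EGR1, FOS, FOSB, IER2, JUN, JUNB and JUND. The 150 bases before the start are printed 5′ to 3′ on the gene's strand, for EGR1 at chr5:138465329-138465478 (+), JUN at chr1:58784048-58784197 (-), JUNB at chr19:12791336-12791485 (+) and FOS at chr14:75278678-75278827 (+). Capitals mark the CArG boxes in EGR1, TGACG and TGACATCA in JUN, and TGACG in JUNB and FOS.
EGR1: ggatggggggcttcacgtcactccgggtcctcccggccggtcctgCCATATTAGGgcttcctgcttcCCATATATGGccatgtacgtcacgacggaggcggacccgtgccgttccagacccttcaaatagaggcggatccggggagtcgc
JUN: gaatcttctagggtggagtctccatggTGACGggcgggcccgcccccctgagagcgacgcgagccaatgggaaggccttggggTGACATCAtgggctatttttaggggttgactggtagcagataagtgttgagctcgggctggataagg
JUNB: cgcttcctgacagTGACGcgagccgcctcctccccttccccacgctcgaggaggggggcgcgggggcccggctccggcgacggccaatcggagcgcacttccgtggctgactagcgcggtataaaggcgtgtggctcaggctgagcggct
FOS: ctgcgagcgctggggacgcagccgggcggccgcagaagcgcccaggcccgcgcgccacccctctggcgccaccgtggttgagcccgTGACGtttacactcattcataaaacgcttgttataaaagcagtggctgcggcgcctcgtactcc
The CArG box, the binding motif of serum response factor, was found at 105 and 83 bases before the start of EGR1 and in no other member's window. It is present in 1.29% of all 35116 windows. Elements more than 250 bases before a start were not searched, so a member without a match can hold one further out. TGACG, the core of the cyclic AMP response element, was found on either strand in 7 of 7 windows and in 24.6% of all windows. The full element TGACGTCA, which contains TGACG on both strands, was found in JUND alone and in 1.85% of all windows. TGACATCA, the AP-1 element variant of JUN, lay 67 bases before its start and is in 2.61% of all windows. The AP-1 consensus TGANTCA was in 0 of 7 windows, against 7.71% of all. TATAAA was in the windows of FOS, FOSB and JUNB, against 11.5% of all. All motifs were searched on both strands, and the choice of motifs was made with the array values known. A match describes these letters and not a bound site.

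Clone 8's array differed from the rest. It correlated with them at 0.915 to 0.926 over 22011 probes, while the other 9 correlated with each other at 0.986 to 0.994. Its median was 7.62 against 7.34 to 7.41 elsewhere, so the comparisons were made with and without it. LMNB1 read 7.79, 7.70 and 7.45 in clones 8, 9 and 12 and 7.72, 7.72 and 7.56 on the arrays of clone 2, against 8.93, 9.17 and 8.84 in the empty vector clones and 9.52 in wild type cells. Every knockdown array lay below every control array, on a probe that the annotation also gives to PCIF1. Epithelial and colorectal markers were detected for 11 of 11 genes, at array means of 9.76 to 10.23. Leukocyte markers averaged 5.95 to 6.15, and 6.45 in clone 8, with 5 of 7 past the filter. Fibroblast and endothelial markers averaged 6.01 to 6.19, and 6.69 in clone 8, with 6 of 9 past the filter. The part of these markers in the results was not tested. The labels do not say which arrays were processed together.

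JUN, the founding AP-1 subunit, activates transcription most strongly of its family. JUN differed more between clone 2 and the clones of V2LHS_62673 than between knockdown and control. It read 7.91, 7.20 and 7.37 in V2LHS_62673 clones 8, 9 and 12 and 8.19, 8.32 and 8.49 on the arrays of V2LHS_62675 clone 2, against 7.54, 8.15 and 8.01 in the empty vector clones and 8.04 in wild type cells. The 3 arrays of clone 2 were the highest of all 10, and clones 9 and 12 were the lowest. Means were 7.50 ± 0.37 for V2LHS_62673 (SD, n = 3 clones) and 8.33 for clone 2 (SD 0.15 over its 3 arrays), against 7.90 ± 0.32 for the empty vector clones (n = 3). Over knockdown and control as a whole JUN was 7.70 ± 0.51 in knockdown and 7.94 ± 0.27 in controls (n = 4 clone-level samples each), with overlapping groups.

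JUNB, which pairs with Fos proteins and often restrains JUN, read 9.67, 8.78 and 9.03 in V2LHS_62673 clones 8, 9 and 12 and 8.97, 9.14 and 9.14 in clone 2, against 9.20, 9.60 and 9.66 in the empty vector clones and 9.01 in wild type cells. Clone 8 was the highest array, by 0.01, and without it all knockdown arrays lay below all 3 empty vector clones but around wild type. JUND, the most steadily expressed Jun gene, read 8.61, 8.13 and 8.35 in clones 8, 9 and 12 and 8.52, 8.65 and 8.72 in clone 2, against 8.52, 8.62 and 8.67 in the empty vector clones and 8.35 in wild type cells. Clones 9 and 12 again lay below the empty vector clones, and clone 2 overlapped them.

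**Figure D1:**
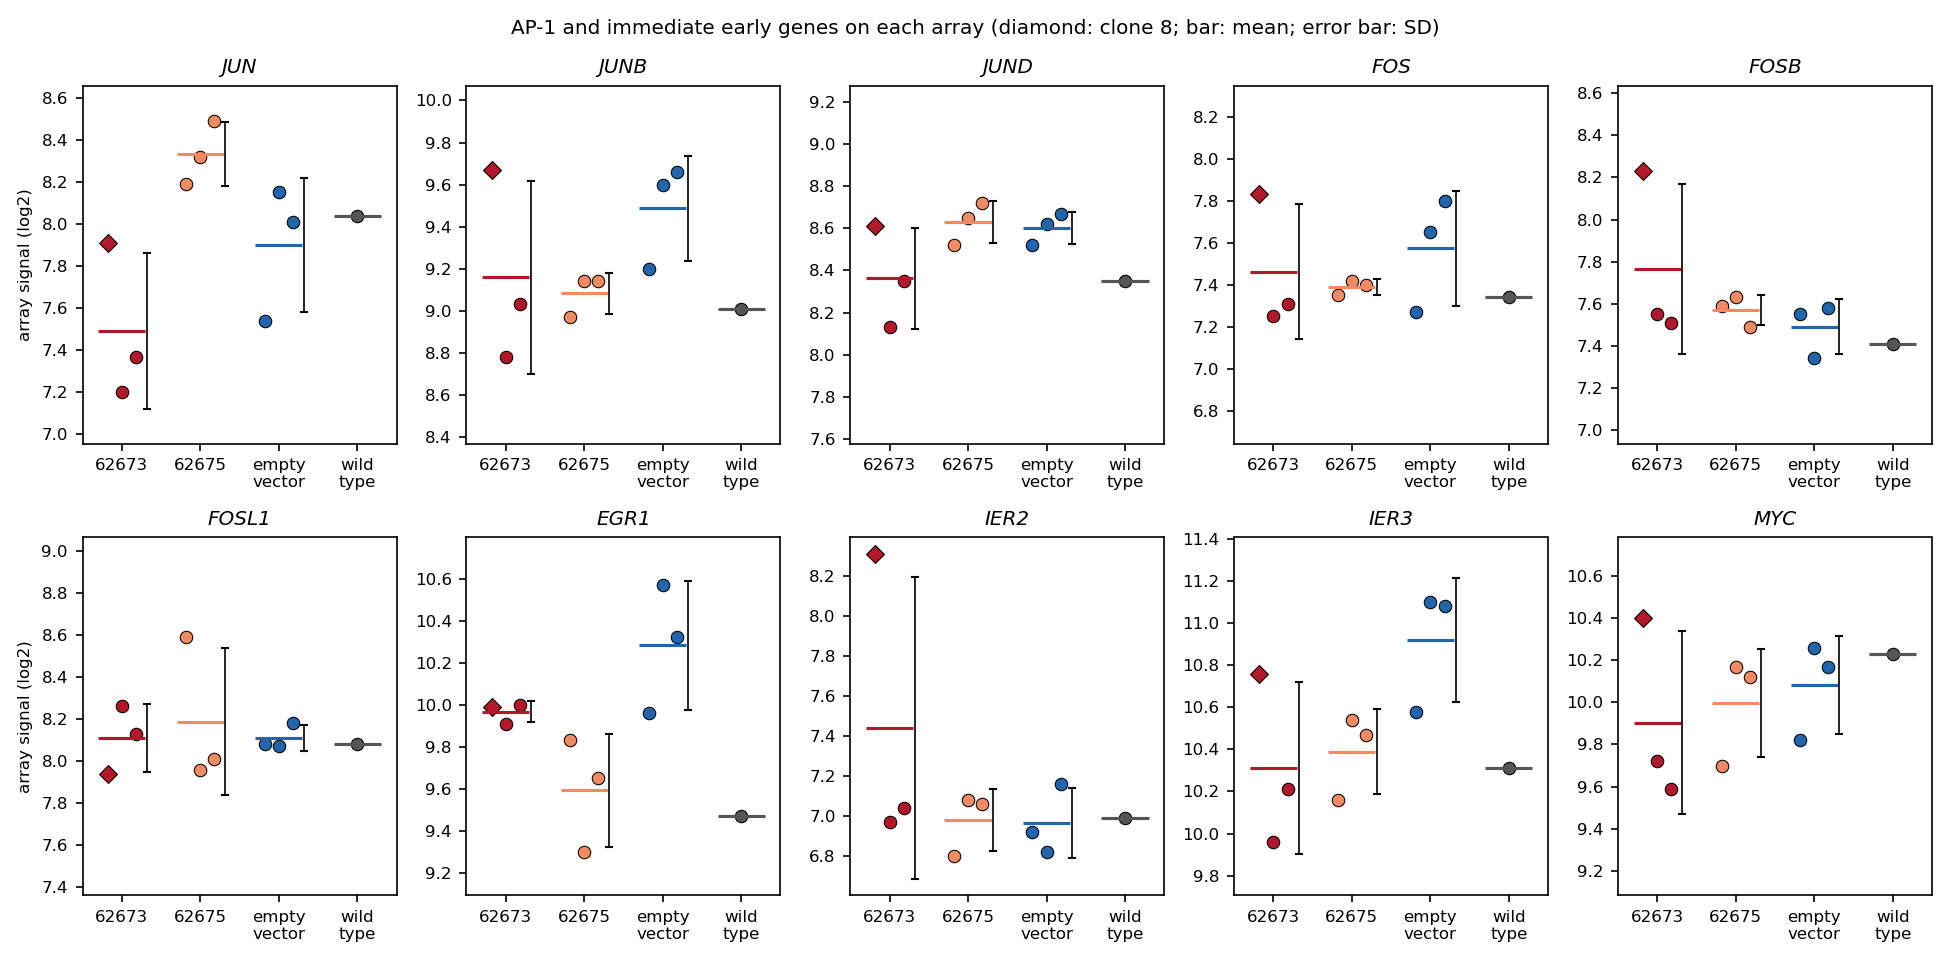
The log2 array signal (vertical axis) of each member is plotted for V2LHS_62673, V2LHS_62675, empty vector and wild type; points are arrays, the diamond is clone 8, bars are means and error bars SD. JUN is highest on the 3 arrays of clone 2 (8.19 to 8.49), IER2 in clone 8 (8.31), and IER3 in empty vector clones 2 and 3 (11.10 and 11.08).

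The Fos genes had no shared pattern across the groups. FOS, the classic serum-induced partner of Jun, read 7.83, 7.25 and 7.31 in V2LHS_62673 clones 8, 9 and 12 and 7.35, 7.42 and 7.40 in clone 2, against 7.27, 7.65 and 7.80 in the empty vector clones and 7.34 in wild type cells. Clone 8 and empty vector clones 2 and 3 were high, and the other arrays lay within a narrow band. FOSB, also of the Fos family, read 8.23, 7.55 and 7.51 in clones 8, 9 and 12 and 7.59, 7.63 and 7.49 in clone 2. The empty vector clones read 7.55, 7.34 and 7.58, and wild type cells 7.41. Clone 8 was 0.61 above the next array, and the range over the other 9 arrays was 0.29, the smallest of the 10 members. FOSL1, which encodes FRA-1, a Fos protein raised by sustained MAP kinase activity, read 7.94, 8.26 and 8.13 in clones 8, 9 and 12 and 8.59, 7.96 and 8.01 in clone 2, against 8.08, 8.07 and 8.18 in the empty vector clones and 8.08 in wild type cells. Of the 9 arrays other than clone 8, the highest and the lowest both came from clone 2.

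EGR1, a zinc finger transcription factor induced through serum response factor, had its highest group mean in the empty vector clones, through clones 2 and 3 of that group. It read 9.99, 9.91 and 10.00 in V2LHS_62673 clones 8, 9 and 12 and 9.83, 9.30 and 9.65 in clone 2, against 9.96, 10.57 and 10.32 in the empty vector clones and 9.47 in wild type cells. The clones of V2LHS_62673 were close to each other (9.97 ± 0.05, SD, n = 3) and to empty vector clone 1. Clone 2 averaged 9.60, near the wild type array and below all 3 empty vector clones (10.28 ± 0.31, n = 3).

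IER3, an early response gene that affects survival signalling, was the member furthest below the empty vector clones in clones 9 and 12. It read 10.76, 9.96 and 10.21 in V2LHS_62673 clones 8, 9 and 12 and 10.16, 10.54 and 10.47 in clone 2, against 10.58, 11.10 and 11.08 in the empty vector clones and 10.31 in wild type cells. Clones 9, 12 and 2 lay below all 3 empty vector clones, clone 8 lay above empty vector clone 1, and wild type cells lay among the knockdown arrays. IER2, a small nuclear protein of the early response, read 8.31, 6.97 and 7.04 in clones 8, 9 and 12 and 6.80, 7.08 and 7.06 in clone 2, against 6.92, 6.82 and 7.16 in the empty vector clones and 6.99 in wild type cells. Clone 8 was 1.15 above the next array, and the other 9 arrays spanned 0.37. After quantile normalization clone 8 read 8.29 for IER2, against at most 7.16 on the other arrays, and after median centring 8.10 against at most 7.16.

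MYC, the growth-promoting transcription factor that is induced early by serum and is a Wnt target, read 10.40, 9.72 and 9.59 in V2LHS_62673 clones 8, 9 and 12 and 9.70, 10.17 and 10.12 in clone 2, against 9.82, 10.26 and 10.17 in the empty vector clones and 10.23 in wild type cells. Clone 8 was the highest array and clones 9 and 12 were among the 3 lowest, together with array 1 of clone 2. The knockdown mean was 9.93 ± 0.36 and the control mean 10.12 ± 0.20 (SD, n = 4 each).

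**Figure D2:**
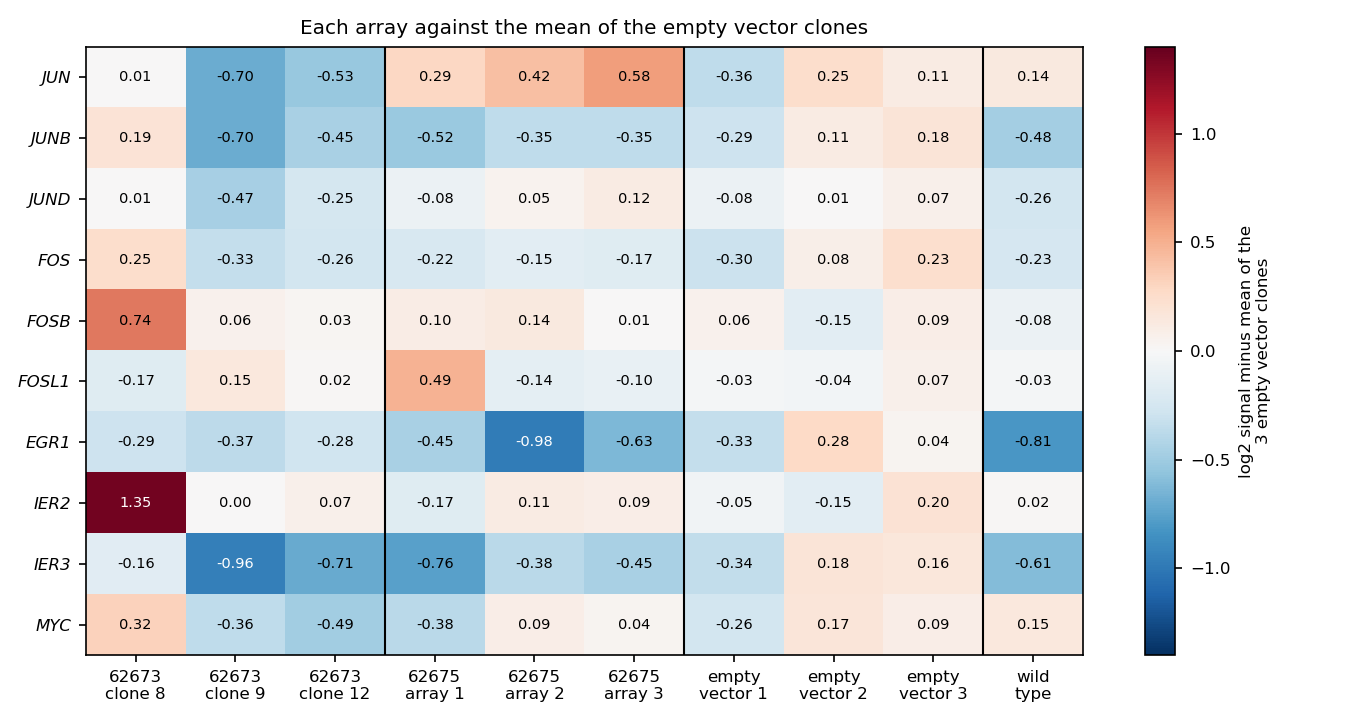
Each cell gives the log2 signal of a member (rows) on an array (columns) minus the mean of the 3 empty vector clones, with red above and blue below. In empty vector clone 1, 9 of 10 members are below the mean, as are 7 of 10 in clones 9 and 12, on array 1 of clone 2 and in wild type cells. On these arrays 46% to 52.5% of all features are below it. FOSB and IER2 are highest in clone 8.

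Some arrays held the extremes of several members. Clone 9 had the lowest value of the 10 arrays for 5 members, JUN, JUNB, JUND, FOS and IER3, against 6.97% of all features. Clone 8 had the highest value for 5, JUNB, FOS, FOSB, IER2 and MYC, a share near that of all features on this array, 46.7%. Empty vector clone 1 was the lowest of its group for 7 of 10 members, against 33.5% of features, and 9 of 10 members were under their empty vector mean on it, as were 52.5% of features. TXNIP, a gene known to follow glucose and culture state, read 9.15, 7.68 and 7.29 in clones 8, 9 and 12 and 7.91, 8.12 and 8.13 in clone 2, against 7.65, 9.38 and 9.48 in the empty vector clones and 8.67 in wild type cells. It was low on the arrays of clones 9 and 12 and of empty vector clone 1, where many members were low too. TXNIP read lower on arrays 2 and 3 of clone 2 than in wild type cells. Yet 5 of 10 members were under the empty vector mean on each of those arrays, as were 40.7% and 52.1% of features. In wild type cells 7 of 10 members were, against 51.7% of features. TXNIP is 1 of 10 tested heat shock and handling genes. In V2LHS_62673 against empty vector without clone 8, 5 of these were higher and 5 lower, with a median of 0.03. The part of culture state in these values was not tested.

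The spread of several members was wide even among the 3 empty vector clones. The SD over these clones was 0.32 for JUN, 0.307 for EGR1, 0.294 for IER3, 0.274 for FOS and 0.254 for JUNB, at percentiles 96.1 to 98.3 of all features tested, whose median SD was 0.1. FOSL1 (0.0608) and JUND (0.0786) lay below that median. Over the 3 arrays of clone 2, which repeat 1 clone, the SD was 0.149 for JUN and 0.0346 for FOS, and 0.353 for FOSL1, where array 1 was 0.61 above the mean of arrays 2 and 3. MYC and IER3 on array 1 were lower than that mean by 0.44 and 0.35. The SD between empty vector clones was larger than that between the arrays of clone 2 for 7 of 10 members and for 42.5% of all features. The range over the 9 arrays other than clone 8 was 1.28 for JUN, 1.26 for EGR1 and 1.14 for IER3, against a median of 0.44 for all features.

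**Figure D3:**
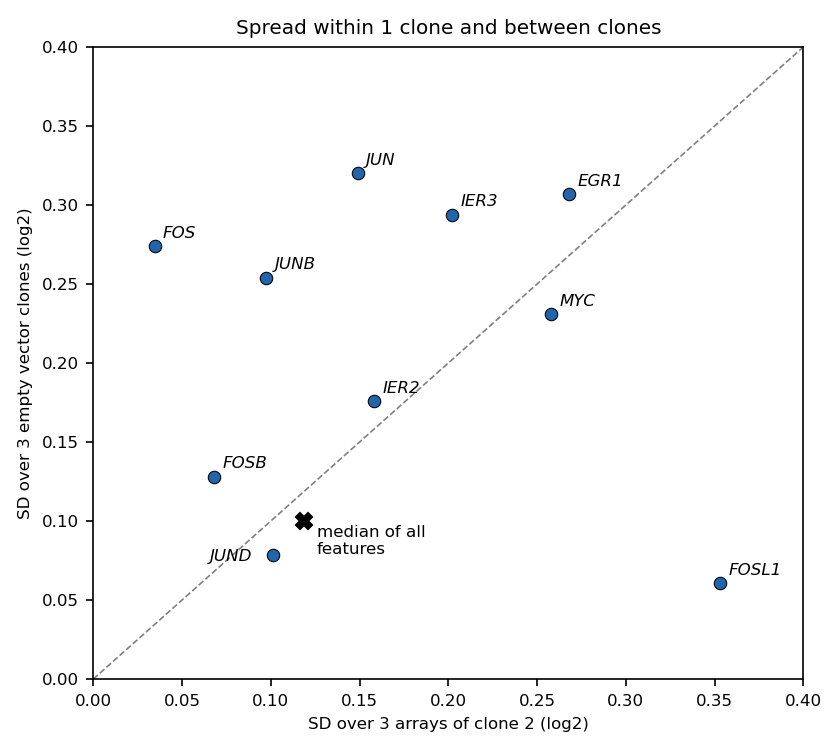
Each point is a member, with its SD over the 3 arrays of clone 2 (horizontal axis, log2) and over the 3 empty vector clones (vertical axis, log2); the dashed line marks equal SD and the cross is the median of all features. JUN, FOS, JUNB and IER3 lie well above the line, and FOSL1 (0.353 and 0.0608) far below it.

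The main comparison asked whether these genes differ between the 4 LMNB1 knockdown clones and the 4 negative controls, with the 3 arrays of clone 2 averaged. None of the 10 members passed in limma with Benjamini-Hochberg adjustment over 11199 features at a threshold of 0.05. Of all features 0% passed, while 257 had an unadjusted p under 0.05, none of them a member. Members lay lower in 7 of 10 cases, with a median difference of -0.15, against 0.04 over all features. IER3 had the lowest, -0.44 (SE 0.22, 95% interval -0.94 to 0.06, adjusted p = 0.761 in limma), at 10.33 ± 0.34 in knockdown and 10.77 ± 0.39 in controls (SD, n = 4 each). IER2 had the highest, 0.35 (SE 0.28, interval -0.28 to 0.98), which was 0.02 without clone 8. When clone 8 was left out, limma called 0 features (0%), with 725 at an unadjusted p under 0.05 (6.47%), among them IER3 (-0.58), JUNB (-0.40) and MYC (-0.35). In 0 of 10 members did the 4 knockdown clones all lie above or all below the 4 controls, which 1.6% of features did above and 1.54% below.

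V2LHS_62673 was set against the empty vector clones, which also lived under puromycin. Taking clones 9 and 12 without clone 8, IER3 fell by 0.83 on the log2 scale (SE 0.15, 95% interval -1.18 to -0.49, adjusted p = 0.0383 in limma), to 56.1% of the empty vector signal. It was the 1 member called, where 1.03% of features passed, 37 up and 78 down. The Jun genes and MYC had lower values that did not pass. JUN differed by -0.61 (adjusted p = 0.0972 in limma), JUNB by -0.58 (0.0862), JUND by -0.36 (0.127) and MYC by -0.42 (0.149). With clone 8 these differences were -0.41 for JUN, -0.32 for JUNB, -0.24 for JUND and -0.18 for MYC. For these 4 genes and IER3, 5 of 10 members, clones 9 and 12 both lay below all empty vector clones, as 17.3% of features did. With clone 8 included no member was called, 0% of features passed and 358 had an unadjusted p under 0.05. IER3 was then -0.61 (SE 0.25, adjusted p = 0.741 in limma). No member had all 3 clones below the empty vector clones, against 7.96% of features. Without clone 8 and with the arrays centred on their medians, IER3 was -0.84 and missed the threshold (adjusted p = 0.0628 in limma). Over the alternatives tried, its adjusted p ranged from 0.00795 to 0.956.

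Clone 2 of V2LHS_62675 was set against the same 3 empty vector clones, so this comparison shares its controls with the one before, and its error is borrowed from the other groups. No member passed, with 0% of features called with all clones and 295 at an unadjusted p under 0.05. Without clone 8, 3.74% of features were called, 174 up and 245 down, none of them a member. EGR1 had the lowest value, -0.69 (SE 0.19, 95% interval -1.11 to -0.26, adjusted p = 0.0766 in limma without clone 8, and 1 with all clones). IER3 differed by -0.53 and JUNB by -0.41, with adjusted p in limma of 0.167 and 0.264 without clone 8, and JUN by 0.43 (0.294). JUNB and IER3 were the 2 of 10 members in which clones 9, 12 and 2 all lay below the 3 empty vector clones, a pattern held by 8.82% of features.

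Clone 2 was also compared with the clones of V2LHS_62673, the other hairpin against LMNB1. V2LHS_62675 rests on 1 clone, so hairpin and clone cannot be told apart here. JUN rose by 1.04 in clone 2 relative to clones 9 and 12 (SE 0.21, 95% interval 0.57 to 1.51, adjusted p = 0.0388 in limma), a 2.06-fold higher signal. It was the only member called, where 2.15% of features passed. JUND was 0.39 higher (SE 0.14, interval 0.09 to 0.70, adjusted p = 0.187) and MYC 0.34 (interval -0.05 to 0.72), against 0.27 for JUND and 0.09 for MYC with clone 8 included. With that clone JUN differed by 0.84 (SE 0.35, interval 0.02 to 1.65, adjusted p = 0.932 in limma), 0% of features passed and 249 had an unadjusted p under 0.05. Without clone 8 and after median centring JUN was 1.05 higher and missed the threshold (adjusted p = 0.0556 in limma), and its adjusted p ranged from 0.0153 to 0.99 over the alternatives. LMNB1 itself differed between clone 2 and clones 9 and 12 by 0.10 (interval -0.27 to 0.46).

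**Figure D4:**
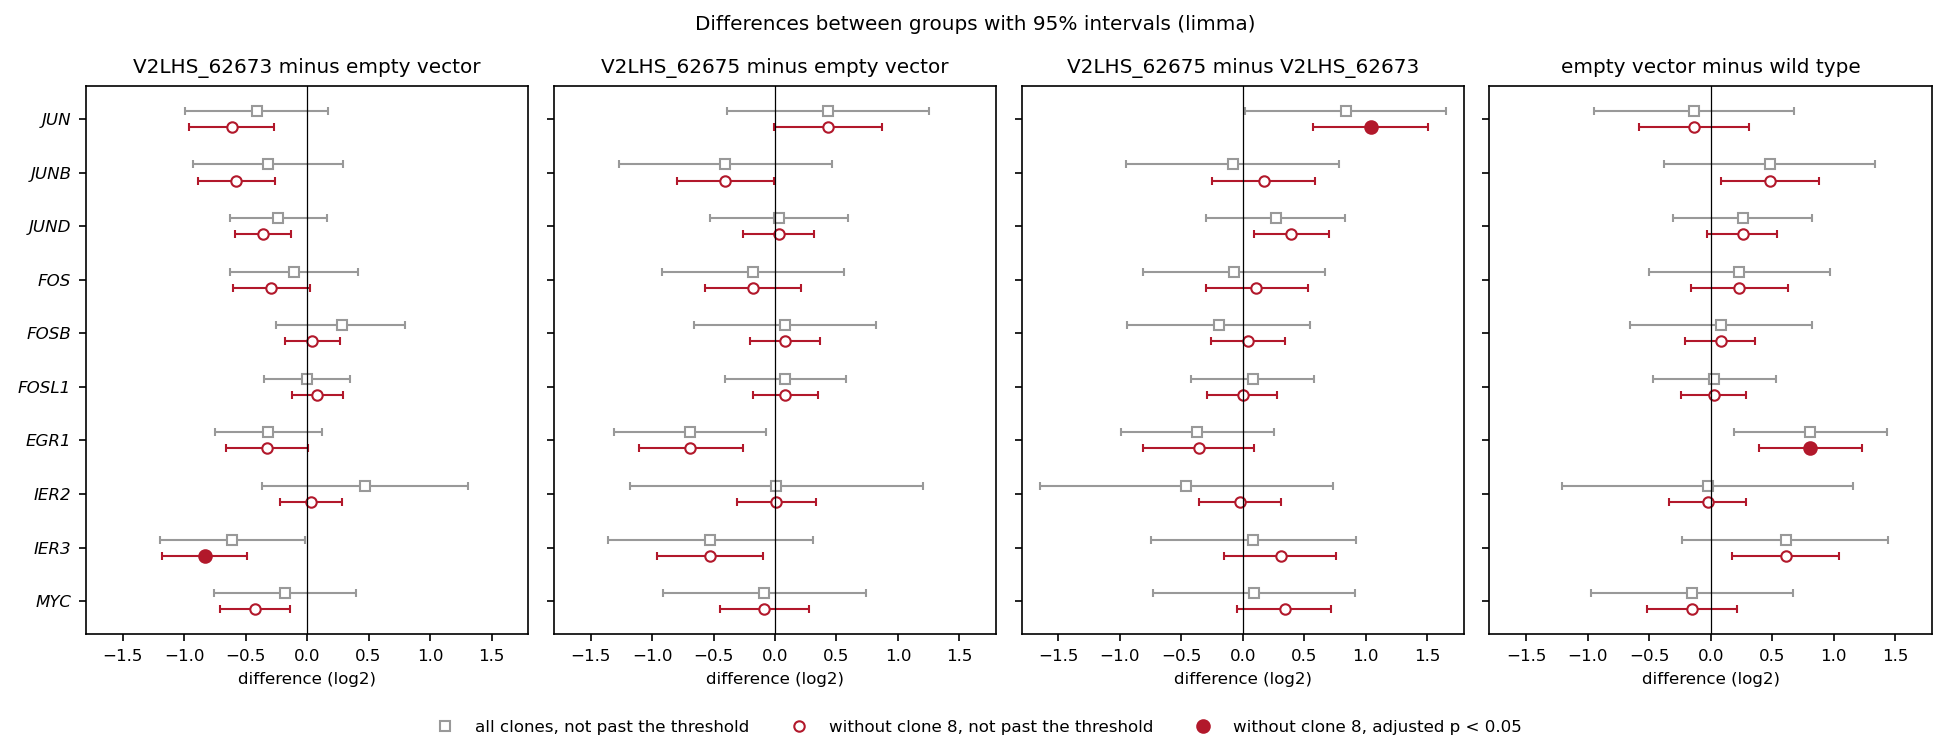
Differences in log2 signal (horizontal axis) with 95% intervals are shown per member for 4 comparisons, with all clones (grey squares) and without clone 8 (red circles, filled where the adjusted p is under 0.05). The filled points are IER3 for V2LHS_62673 against empty vector (-0.83), JUN for V2LHS_62675 against V2LHS_62673 (1.04) and EGR1 for empty vector against wild type (0.81).

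The empty vector clones were compared with wild type cells to see how the members stood without a hairpin. Without clone 8, EGR1 rose by 0.81 in the empty vector clones (SE 0.19, 95% interval 0.39 to 1.23, adjusted p = 0.046 in limma), 1.75-fold, and all 3 clones lay above the wild type array. EGR1 was the only member called, where 3.6% of features passed, 213 up and 190 down. After median centring, also without clone 8, EGR1 was 0.77 and missed the threshold (adjusted p = 0.0721 in limma). Without centring, IER3 was 0.61 higher (adjusted p = 0.112), JUNB 0.48 (0.171) and JUND 0.26 (0.319). For these 4 members all 3 clones lay above wild type, as in 30.3% of features, and for 0 members all lay below, as in 30.1%. With all clones the EGR1 difference was the same 0.81 (SE 0.26, adjusted p = 1), 0% of features passed and 290 had an unadjusted p under 0.05. The wild type group is 1 array, and vector, puromycin, cloning and culture cannot be told apart in this comparison. Its 3 empty vector arrays are also the reference of the hairpin comparisons. In clone 2 and in wild type cells alike, EGR1, IER3 and JUNB lay below them. The share of all features with this pattern was not counted.

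Other genes of the same pathways were read from lists. No gene of any list passed between knockdown and control, with or without clone 8, and with all clones no list gene passed in any comparison, so the calls that follow hold without clone 8. Of 29 further immediate early genes, 23 were tested, and 1 rose in clone 2 against empty vector without clone 8, where 3.74% of all features were called. That gene was CCN1, a secreted matrix protein induced by serum, at 8.47, 8.77 and 9.00 in clone 2 against 7.45, 7.49 and 7.76 in the empty vector clones and 8.05 in wild type cells, a difference from the empty vector clones of 1.18 (SE 0.19, adjusted p = 0.0113 in limma). It was 0.54 (adjusted p = 0.761) between knockdown and control, where KLF10 stood at 0.32, and at 0.15 without clone 8, and TRIB1 at -0.31. The median of the list was 0.05 between knockdown and control with all clones and -0.02 without clone 8. Among 13 tested partners of Jun and Fos, 0 passed in any comparison, with a median of 0.14 with all clones and -0.04 without clone 8, and those with the smallest p between knockdown and control were BATF, with a log2 difference of 0.27, MAFG with 0.36 and NRL with 0.36. Without clone 8 these differences were 0.24, 0.18 and 0.13. Of 15 tested kinases and factors upstream, 0 passed, where MAPK9, a JNK kinase that phosphorylates JUN, stood at -0.57, HRAS at 0.34 and MRTFA, a cofactor of serum response factor, at 0.31. Without clone 8 they stood at -0.24, 0.18 and 0.16, in the same order, and MAPK9 read 8.85 in clone 8 against 10.01 to 10.51 on the other arrays.

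Of 21 known AP-1 target genes, 12 were tested. CD44, the hyaluronan receptor, fell by 0.70 in V2LHS_62673 against empty vector without clone 8 (SE 0.12, adjusted p = 0.0266 in limma). It was the 1 gene of the list that passed, where 1.03% of features passed. CD44 read 7.41, 7.64 and 7.99 in clones 8, 9 and 12 and 8.22, 8.01 and 7.93 in clone 2. The empty vector clones read 8.43, 8.54 and 8.58, and wild type cells 8.65. Knockdown and control thus did not overlap, a pattern that 1.54% of features had in this direction over the clone-level samples. In V2LHS_62673 against empty vector, without clone 8, all 12 tested targets had a lower value, as did 50.1% of features. Their median was -0.10, against 0.00 over all features. With clone 8 included, 7 of the 12 were lower and 5 higher, with a median of -0.09, and CD44 differed by -0.84 (adjusted p = 0.741 in limma). Between knockdown and control the list's median was -0.01, with CD44 at -0.78, PLAUR, the urokinase receptor, at -0.40 and VEGFA at -0.37, each at an adjusted p of 0.761. Without clone 8, CD44 stood at -0.66 and PLAUR at -0.22.

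Of 25 known MYC target genes, 15 were tested, and those that passed encode ribosome assembly factors. Without clone 8, 3 of the 15 rose in clone 2 against empty vector, where 3.74% of features passed, PES1 (0.79, adjusted p = 0.00752), MRTO4 (0.87, 0.00848) and NOP16 (0.60, 0.0251), all in limma. In the empty vector clones 4 of the 15 fell against wild type, where 3.6% of features passed, PES1 by 0.85, MRTO4 by 0.89, NOP16 by 0.65 and RRP12 by 0.66, with adjusted p in limma of 0.00817 to 0.0475. PES1 read 8.50, 8.91 and 9.05 in clone 2, against 8.05, 8.06 and 7.95 in the empty vector clones and 8.87 in wild type cells. Clone 2 and wild type cells thus stood above the empty vector clones, the group that both comparisons share. MYC itself differed by -0.09 in clone 2 against empty vector and by -0.15 in empty vector against wild type, and did not pass. Against clones 9 and 12, where 2.15% of features passed, clone 2 was higher for PES1 (0.72), RRP9 (0.77), NOP16 (0.58) and MRTO4 (0.62), which passed at adjusted p of 0.0199 to 0.0494 in limma, while MYC was 0.34 and did not. Between knockdown and control the median of the list was 0.08, with APEX1 at 0.19, RRP9 at -0.18 and PA2G4 at -0.29, which was 0.08 without clone 8. Of 18 tested MYC partners and regulators 0 passed in any comparison, with LEF1 at -0.49, MXI1, which competes with MYC for MAX, at -0.26 and TCF7L2 at 0.24 between knockdown and control. LEF1 stood at -0.16 without clone 8, which read 9.18 against 10.17 to 10.87 on the other arrays.

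Heat shock and handling genes were tested for 10 of 12 genes. HSPB1, a small heat shock protein, rose by 0.58 in the empty vector clones against wild type without clone 8 (adjusted p = 0.0429 in limma). It was the 1 call in the list, where 3.6% of features passed. Of the 10 genes, 6 were higher there and 4 lower, with a median of 0.10. Between knockdown and control BAG3 stood at 0.27, DDIT3 at -0.47 and TXNIP at -0.75. Among the epithelial markers VIL1, a microvillus protein, was 0.68 higher in clone 2 than in clones 9 and 12 (adjusted p = 0.039 in limma). This is the comparison in which JUN rose and 2.15% of features passed. There 10 of 11 epithelial markers were higher, as were 55.7% of features. With clone 8 included, 7 of 11 were higher, as were 45.2% of features, and VIL1 differed by 0.62 (adjusted p = 0.932 in limma). Against the empty vector clones, without clone 8, all 11 markers were lower in clones 9 and 12, with a median of -0.21, as were 50.1% of features. With clone 8 included, 8 were lower and 3 higher. In clone 2 against the empty vector clones, 6 were higher and 5 lower. The part of these markers in the JUN difference was not tested.

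The genes whose log2 signals followed FOS, EGR1 and MYC most closely were ranked by Pearson's r over the 7 clone-level samples without clone 8. For FOS they were SPPL2B (r = 0.989), KLF15 (0.972) and CSTPP1 (0.97). For EGR1 they were TRIO (0.996), ERCC2 (0.982) and TPP1 (0.982), and for MYC DMAP1 (0.998), RTKN (0.992) and CRACDL (0.984). With clone 8 included, the values were 0.873, 0.704 and 0.943 for FOS, 0.946, 0.806 and 0.91 for EGR1, and 0.493, 0.62 and 0.687 for MYC, in the same order. These are the highest of 11199 features over few samples that share arrays and scaling, and they are given as a description.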

How the data were processed

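RNA of 10 samples was measured on gene-level exon arrays, per the labels after Trizol extraction and ribosomal RNA reduction, as biotin-labelled single-stranded cDNA. The deposited values are log2 signals for 22011 probes. The base was read from their range, and the authors' normalization is not given in the sources used here. They were used as deposited. A single symbol is annotated for 14432 probes, several symbols for 2408 and no symbol for 5171. The platform annotation gave symbols, updated by gene identifier for 14404 probes. Genes averaging below the probes' 25th percentile (5.95) were left out, which left 11198, plus the LMNB1 probe. The 3 arrays of clone 2 were averaged, giving 8 clone-level samples. Tests used R 4.3.3 and limma 3.58.1 (lmFit and eBayes), two-sided, adjusted over 11199 features, threshold 0.05. The knockdown and control fit had 6 residual degrees of freedom (prior 3.91), and the fit of the 4 groups had 4 (3.26). Without clone 8 they had 5 (3.95) and 3 (7.62). The fit was tested on simulated data. Each p-value reflects variation from clone to clone, drawn toward the spread typical of all features. A lone sample is assumed to vary like the rest. Without clone 8 the prior degrees of freedom of the 4 groups (7.62) outweighed the residual ones (3). The members called there, IER3, JUN and EGR1, had empty vector SDs at percentiles 97.7 to 98.3 of all features. Their errors were therefore drawn toward a smaller spread than their own. The number of arrays limits the precision.

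The members and gene lists were chosen with earlier results of these data known. Named genes are the members, LMNB1, up to 3 genes per list with the smallest p between knockdown and control, list genes past the threshold in any comparison, and the 3 genes most like FOS, EGR1 and MYC. Leaving out clone 8 was 1 of the planned omissions of single samples, and the choice to report it throughout was made after its array was seen to stand apart. Alternatives were quantile normalization, median centring, other filters, another rule for several probes, a trended robust prior, array weights, every array as a replicate, clone as a random block, empty vector clones as the only controls, a replicate block, and leaving out each sample.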

Additional observations from a re-analysis of the deposited data

Results flagged for a closer look

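In groups of 4 clone-level samples, 20 were examined for a value far from the others and 3 held one. Chance marks about 1 in 20 groups of like samples. Every knockdown group holds clone 8, the highest array for 46.7% and the lowest for 31.4% of all features. That rate therefore does not apply to the knockdown groups. FOSB was 8.23 in clone 8, the highest of the 4 knockdown samples, with a gap of 0.922 of the group's range to the next. IER2 was 8.31 in clone 8, with a gap of 0.953 of the range. Clone 8 is the array that correlates less with all others. FOSL1 was 8.18 in empty vector clone 3, the highest of the 4 controls, with a gap of 0.878 of a range that was itself narrow, 8.07 to 8.18. JUN differed by 1.04 between clone 2 and clones 9 and 12, with clone 8 left out. With clone 8 the difference was 0.84 and did not pass the threshold. V2LHS_62675 rests on 1 clone, so construct and clone cannot be told apart in this difference.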

How the results depend on the processing

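Between knockdown and control, features past the threshold in limma numbered 0 with the values as deposited. They numbered 1 with quantile normalization, a trended robust prior or clone as a random block, 2 with every array as a replicate, 3 with the empty vector clones as the only controls, 7 with array weights, and 19 without clone 8 and wild type cells. Leaving out 1 sample gave 0 to 3. No member passed in any of these. For V2LHS_62673 against empty vector the count of 0 became 341 with array weights, 6 with every array as a replicate, 61 without clone 8 after median centring, and 0 to 115 on leaving out 1 sample, the 115 without clone 8. Members called were 4 with array weights, IER3, JUN, JUNB and JUND, and 0 to 1 on leaving out a sample. Without clone 8 and after median centring 0 members were called in any comparison, and IER3, JUN and EGR1 had adjusted p of 0.0628, 0.0556 and 0.0721 in limma in the comparisons that call them without centring. For V2LHS_62675 against empty vector the counts were 470, 58, 278 and 0 to 419 in the same settings. For V2LHS_62675 against V2LHS_62673 they were 367, 15, 127 and 0 to 241, with 1 member called with array weights and 0 to 1 on leaving out a sample. For empty vector against wild type they were 476 with array weights, 1 with no filter, 282 without clone 8 after centring, and 0 to 403, with 1 member called with array weights and 0 to 1 on leaving out a sample.

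Over all features, the replicate numbers of clone 2 and empty vector arrays showed no pairing: the deviations of same-numbered arrays correlated at 0.029, -0.154 and -0.236. Among the members, JUN, JUNB, JUND, FOS, IER2, IER3 and MYC were low on array 1 of clone 2 and in empty vector clone 1. EGR1 and FOSL1 went opposite ways on these arrays, and FOSB was slightly higher on both. Pairing of the members alone was not tested. With the replicate block, on these 6 arrays, 948 of 11199 features and 3 members (EGR1, IER3 and JUNB) were called. Without it these numbers were 1028 and 1 (EGR1). Both fits count the 3 arrays of clone 2 as replicates although they repeat 1 clone. Their calls therefore do not measure variation between knockdown clones.

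Signs turned for small differences. FOSL1 between knockdown and control was -0.01 with quantile normalization and -0.04 with centring, and for V2LHS_62673 against empty vector -0.04 and -0.08. For V2LHS_62675 against empty vector JUND and IER2 were 0.00 with quantile normalization. For V2LHS_62675 against V2LHS_62673, JUNB was 0.00 with centring, 0.21 with array weights and 0.18 without clone 8 after centring, FOS 0.02, 0.12 and 0.12, FOSB 0.03 and 0.05 in the last 2 settings, FOSL1 -0.03 with array weights, and IER3 and MYC -0.04 and -0.05 with quantile normalization. FOSL1 in empty vector against wild type was -0.01 with centring, with and without clone 8. PA2G4 between knockdown and control was 0.08 with array weights and without clone 8 and wild type cells, and 0.07 without clone 8 after centring.

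Leaving out 1 sample or array gave, between knockdown and control, -0.20 to 0.02 for FOS, -0.02 to 0.09 for FOSL1 and -0.44 to 0.08 for PA2G4. For V2LHS_62673 against empty vector it gave -0.29 to 0.00 for FOS and -0.07 to 0.08 for FOSL1. For V2LHS_62675 against empty vector it gave -0.02 to 0.08 for JUND, -0.12 to 0.19 for FOSL1, -0.06 to 0.11 for IER2 and -0.22 to 0.06 for MYC. For V2LHS_62675 against V2LHS_62673 it gave -0.27 to 0.17 for JUNB, -0.18 to 0.11 for FOS, -0.32 to 0.04 for FOSB, -0.12 to 0.19 for FOSL1, -0.09 to 0.31 for IER3 and -0.07 to 0.34 for MYC. For empty vector against wild type it gave -0.26 to 0.04 for JUN, -0.01 to 0.05 for FOSL1 and -0.12 to 0.05 for IER2. IER2 was under the filter at the 50th percentile and has no value there. The cause of these changes was not tested. The number of clones, and a lone clone or array in 2 of the 4 groups, limit what these arrays can show.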
